A study of Homo sapiens with 38 samples.

Results

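The subject is the loss of mitochondrial DNA (mtDNA) in cells that were under no stress, measured on the control arrays of a study of human tumour cell lines. HT-1080 is a fibrosarcoma line and HT-29 a colorectal adenocarcinoma line, and a rho0 derivative is a subline of either that is deficient in mtDNA. Every array labelled as a control was taken, which gave 12 of the 38 arrays of the series. Of these, 6 came from parental HT-1080 and 2 from HT-1080 rho0, while 3 came from parental HT-29 and 1 from HT-29 rho0. All 12 cultures had neither a stress agent nor an inhibitor, and within a line they were labelled as mtDNA present or deficient. The deposited names of 3 parental controls also hold Pt, and counts with these as the only parental controls are given below. The sources used here do not say how the rho0 cells were made, or whether each rho0 line is 1 clone. The other 26 arrays came from cells under 2-deoxyglucose (2DG), glucose starvation (GS) or tunicamycin (TM), with or without inhibitors, and are used only where named below.

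Mitochondrial DNA encodes core subunits of respiratory complexes I, III and IV and of ATP synthase, with the ribosomal and transfer RNAs of the organelle. All other mitochondrial proteins, including the mitochondrial ribosome, come from nuclear genes and are imported. Cells without mtDNA cannot respire, live by glycolysis, and classically need uridine and pyruvate in the medium, because the pyrimidine enzyme dihydroorotate dehydrogenase and the reoxidation of NADH depend on electron transport. Mitochondrial dysfunction is known to act on nuclear genes through the integrated stress response, in which the transcription factor ATF4 raises genes of amino acid synthesis and transport.

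The deposited MAS5 signals were scaled to a common trimmed mean of 118.6, and changes are rho0 minus parental differences of log2(scaled signal + 5.93). The offset holds back the change of any gene near background. The trimmed mean before scaling was 124.1 to 136 on the parental HT-1080 arrays and 126.2 to 129 on the parental HT-29 arrays, and lower on every rho0 array (111.5 and 117.5 in HT-1080, 109.5 in HT-29). The 3'/5' ratio of GAPDH, a sign of RNA integrity, lay between 0.922 and 1.03 on all 12 arrays. Vimentin (VIM), a mesenchymal marker, was at 9203 to 11570 in HT-1080 and its rho0 line and at 19.3 to 33.0 in HT-29 and its rho0 line. EPCAM, an epithelial marker, was at 4907 to 5442 in HT-29 and its rho0 line and at most 7.47 in HT-1080 and its rho0 line. Other markers moved in HT-29 rho0. The summed signal of 15 mesenchymal markers was 2651 there and 1446 to 1785 in parental HT-29, with LGALS1 at 1973 against 614.9 to 1358. That of 17 colon epithelial markers was 29470 against 32320 to 44210, with KRT8 at 3840 against 5847 to 8862 and KRT18 at 10850 against 12750 to 13140. Of the same list, CDH1 (2955 against 2426 to 2656) and LGALS4 (2196 against 1487 to 2086) lay above the parental arrays. So did CLDN3 (1381 against 891.8 to 1283). In HT-1080 the sums of both lists in rho0 lay within the parental range, but single markers did not. FBN1 (18.4 and 18.0 against 96.4 to 151.4) and TGFBI (691.5 and 767.2 against 1143 to 3645) lay below. So did CAV1 (1401 and 1487 against 2013 to 2873) and SPARC (2109 and 2257 against 2369 to 2751). LGALS1 (8855 and 7845 against 7029 to 7522) and KRT8 (631.4 and 548.4 against 388.6 to 542.9) lay above. The part of such marker differences in the results for either line was not tested. The colon marker KRT20 ranged from 15.4 to 3014 among the 3 parental HT-29 arrays, and the correlation between arrays of that group went as low as 0.941. HT-29 rho0 had a single array, so its tests assume that this line varies like the other groups, and nothing says that the other cultures were grown independently, so each p-value reflects the scatter among the 12 cultures alone, which may be technical.

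The transcripts encoded by mtDNA were close to absent from both rho0 lines. MT-CO1, the catalytic subunit of complex IV, had scaled signals of 8171 to 11190 (median 9431) on the 6 parental HT-1080 arrays and of 10170, 9306 and 9034 on the parental HT-29 arrays. Its signals in the rho0 cells were 0.297 and 0.526 in HT-1080 and 0.758 in HT-29, where all parental arrays lay far above all rho0 arrays. The log2 change over both lines was -10.51 ± 0.10 (SE), with an adjusted p of 3.784e-18 from limma. The change was -10.53 for MT-CO2, -10.18 for MT-ATP6 of the ATP synthase, and -9.80 and -9.74 for the complex I subunits MT-ND2 and MT-ND4. MT-CO3 (202.2 to 533.7 on the parental arrays, at most 0.864 in rho0) changed by -5.83 and MT-ND6 by -5.16. All 7 measured mtDNA genes fell in both lines, where 6.89% of nuclear genes fell in HT-1080 and 3.92% in HT-29. Their fall also stood in every alternative run. MT-ND6, the complex I subunit encoded on the strand opposite to the other protein genes, differed more between the lines: its change was -6.37 in HT-1080 and -3.95 in HT-29, from parental signals of 538.8 to 1529 and 183.4 to 228.8. The line difference passed for MT-ND6 (-2.42, adjusted p = 0.0301) and MT-ND2 (0.84, adjusted p = 0.01453), and the rho0 signals of both genes were at most 9.45, where the offset sets the size of a change.

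**Figure D1:**
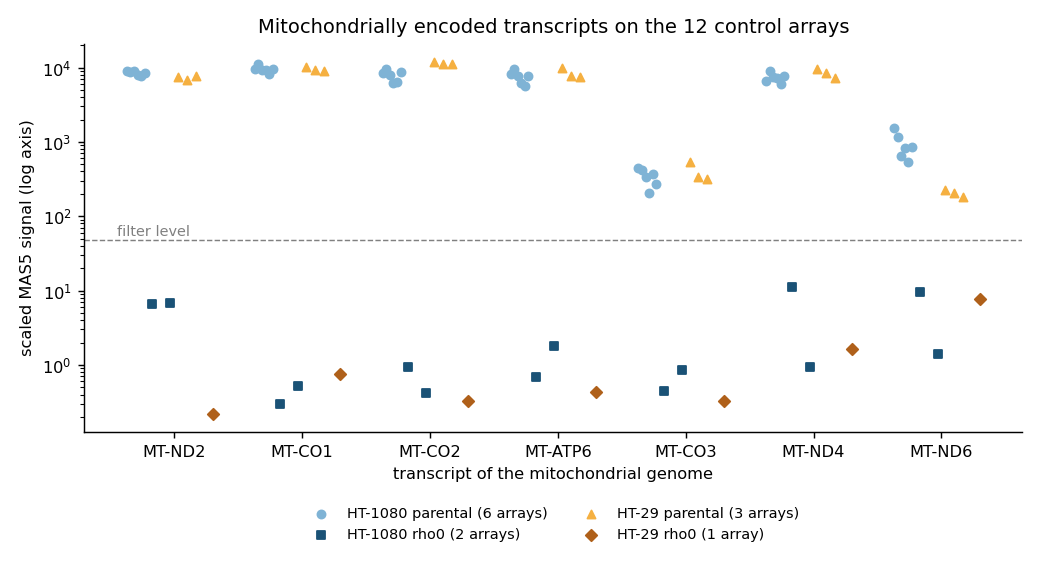
Scaled signal (log axis) of the 7 measured mtDNA-encoded transcripts on each control array, for HT-1080 parental (6 circles), HT-1080 rho0 (2 squares), HT-29 parental (3 triangles) and HT-29 rho0 (1 diamond). The dashed line is the filter level of 47.43, and every rho0 point lies below it while every parental point lies above.

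The same near-complete loss was looked for over all probe sets, as a signal above the filter level on all parental arrays and below 10% of the trimmed mean on all 3 rho0 arrays. It was met by 11 probe sets, of which 9 were mtDNA transcripts. A further one carries no gene symbol in the annotation used here, and read 540.4 to 1015 on the parental arrays and at most 2.27 in rho0. The remaining one was assigned to PTPRO, a receptor-type tyrosine phosphatase encoded on chromosome 12. Its signal was 549.7 to 876.1 (median 693.6) in parental HT-1080, 366.4, 364.1 and 364.7 in parental HT-29, 3.79 and 1.16 in HT-1080 rho0 and 0.541 in HT-29 rho0. No rho0 array came near a parental one, and the change was -6.41 ± 0.19 in HT-1080 and -5.84 ± 0.27 in HT-29 (adjusted p = 1.86e-11 and 7.985e-09). The other 2 probe sets of PTPRO did not exceed 13.3 and 7.68 on any of the 12 arrays. The fall is therefore known for 1 probe set and not for the PTPRO mRNA as a whole, and what that probe set binds was not tested.

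Nuclear genes differed widely between rho0 and parental cells, and few genes passed the threshold in both lines. Of 11450 nuclear genes tested with limma at a Benjamini-Hochberg adjusted p under 0.05, 703 were higher (6.14%) and 789 lower (6.89%) in HT-1080 rho0, and 457 were higher (3.99%) and 449 lower (3.92%) in HT-29 rho0 (906 in all, 7.91%). In the mean of both lines 871 rose (7.61%) and 801 fell (7.0%). Only 63 genes (0.550%) rose in both lines and 84 (0.734%) fell in both (147 in all, 1.28%), where "both" asks for the threshold in each line. The shared rises were 8.96% of the HT-1080 rises and 13.8% of the HT-29 rises, and the shared falls were 10.7% and 18.7% of the falls. A further 36 genes (0.314%) passed in both lines in opposite directions. The correlation of the 2 lines' changes across genes, which are not independent replicates, was 0.111. The line difference passed for 641 genes (5.60%), of which 288 had the higher change in HT-1080 (2.52%) and 353 the lower (3.08%).

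Some of these genes lay in long runs of neighbouring genes that differed together, and list members in a run are marked in part only. An unmarked member may also lie in a run. Outside the runs of both lines 7.88% of genes rose and 4.66% fell in the mean. The balance of rises and falls depends on the scaling. With the deposited scaling kept, 384 genes rose and 1893 fell in the mean of both lines, and the shared genes were 14 higher and 334 lower, while the median of all nuclear genes moved from 0.04 to -0.14. With the spread estimated from arrays of the same line only, 3 genes passed in HT-29 and 2 in both lines, so the HT-29 and shared calls borrow the spread of the HT-1080 cultures. Without HT-1080 rho0 replicate 1 or 2 the genes past the threshold were 425 or 348 in that line, 946 or 911 in the mean and 270 or 202 in the line difference. Without HT-29 parental control 1 they were 538 in HT-29, and without control 2 the line difference passed for 1130. The 147 shared genes became 34 without HT-1080 rho0 replicate 1, 32 without rho0 replicate 2, 86 without HT-29 parental control 1 and 284 without HT-29 parental control 2.

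**Figure D2:**
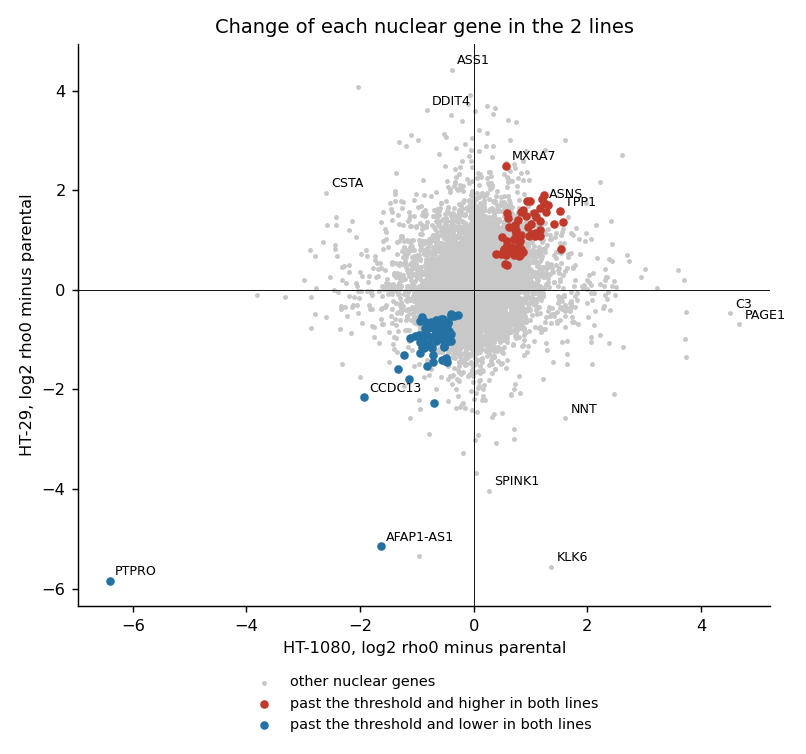
Log2 change of each nuclear gene in HT-1080 (horizontal) against HT-29 (vertical), rho0 minus parental, with the 63 genes higher in both lines in red and the 84 lower in both in blue. The shared genes lie in 2 opposite corners of a cloud with a correlation of 0.111, PTPRO lies farthest out, and genes such as C3, CSTA, KLK6 and ASS1 lie along 1 axis.

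Genes that rose in both lines included TPP1, MARK4, PODXL and ASNS, and in the line with the smaller change the 10 largest shared rises were 1.17 to 1.52 on the log2 scale. TPP1, a lysosomal peptidase, had signals of 181.1 to 252.6 (median 217.6) in parental HT-1080 and 676.7 and 593.7 in its rho0 line, and of 155.9, 477.2 and 234.4 in parental HT-29 against 790.4 in its rho0 line. All rho0 arrays exceeded all parental arrays of their line, although HT-29 control 2 stood well above the other 2. The change was 1.52 ± 0.29 in HT-1080 and 1.58 ± 0.41 in HT-29 (adjusted p = 0.00406 and 0.03247). MARK4, a kinase that phosphorylates microtubule-associated proteins, went from 53 to 82.6 (median 70.5) to 227 and 204.3 in HT-1080, and from 88.3, 138.3 and 167.9 to 336 in HT-29. Neither line's groups overlapped for MARK4, which rose by 1.58 ± 0.23 and 1.36 ± 0.33. PODXL, a sialomucin of the cell surface, was at 902.5 to 1464 (median 1120) in parental HT-1080 and 2638 and 2448 in rho0, and at 1587, 988.7 and 1439 in parental HT-29 and 3009 in rho0. Its changes of 1.17 ± 0.19 and 1.19 ± 0.26 were nearly the same size in both lines.

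The other 7 of the 10 largest shared rises, ranked by the smaller of the 2 changes, were TMEM132A, MICAL1 (a monooxygenase that disassembles actin filaments), ZNF704, PCNX2, ASNS (asparagine synthetase), SELENOM (a selenoprotein of the ER) and ZMAT3 (an RNA-binding target of p53). Their smaller changes lay between 1.17 and 1.33. Over all 63 shared rises the smaller change ran from 0.39 to 1.52. Among the rest, chosen after their values were seen, PHYH, which starts the breakdown of phytanic acid in peroxisomes, rose by 1.10 and 1.47. ACAA2, the last enzyme of mitochondrial fatty acid oxidation, rose by 0.79 and 0.97, DHTKD1 of mitochondrial lysine breakdown by 0.99 and 1.79, and ETHE1 of mitochondrial sulphide oxidation by 0.80 and 0.69. The lysosomal genes ASAH1 (acid ceramidase), IGF2R (the receptor that sorts lysosomal enzymes) and LAPTM4A rose by 0.80, 1.16 and 0.55 in HT-1080 and by 0.85, 1.08 and 0.52 in HT-29. The lysosomal enzyme gene GLA, in the lower HT-1080 run of chromosome X, went the other way. It was a shared fall, with -0.89 in HT-1080 and -1.04 in HT-29. The autophagy receptors NBR1 and CALCOCO2 rose by 0.81 and 0.58 in HT-1080 and by 0.70 and 0.98 in HT-29.

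By the smaller change the largest shared falls were those of PTPRO, CCDC13 and AFAP1-AS1, and AFAP1-AS1, TXLNG and TSR2 are given here array by array. AFAP1-AS1, a long antisense RNA, had signals of 35.5 to 77.0 (median 42.5) in parental HT-1080 and 10.7 and 12 in rho0, and of 261.5, 399.7 and 204.6 in parental HT-29 and 2.06 in rho0. The arrays did not overlap, and the fall was deeper in HT-29 (-5.15 ± 0.45) than in HT-1080 (-1.64 ± 0.32), with a line difference of 3.51 (adjusted p = 0.003909). TXLNG, a syntaxin-binding protein encoded on chromosome X, went from 429 to 500.0 (median 468.9) to 212.4 and 210.1 in HT-1080, and from 1116, 942.9 and 881.3 to 493.2 in HT-29. Its arrays did not overlap either, and it fell by 1.13 ± 0.13 and 0.98 ± 0.18 (adjusted p = 0.0001018 and 0.005654). TSR2, a chaperone of a ribosomal protein, went from 289 to 391.2 (median 339.5) to 176.4 and 168.4 in HT-1080, and from 566.7, 548.8 and 595.9 to 232.5 in HT-29. It fell by 0.95 ± 0.14 and 1.27 ± 0.20, and again no rho0 array reached the parental range.

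The other 6 of the 10 largest shared falls were CCDC13, TRIM61, JADE1 (a subunit of a histone acetyltransferase complex), GNL2 (a nucleolar GTPase of large ribosomal subunit assembly), ERCC6L (a helicase of mitotic chromosomes) and CALB2 (calretinin). For CCDC13 only 1 of 4 probe sets showed the fall, and for JADE1 the other 3 probe sets had changes of 0.11 to 0.43 in HT-29, where the one used had -1.30. Over all 84 shared falls the smaller change ran from 0.27 to 5.84 in size. Mitochondrial genes among them, again named after their values were seen, were CISD2 of the outer membrane (-0.92 in HT-1080, -1.15 in HT-29), TRMT10C of mitochondrial RNA processing (-0.96, -0.91), HCCS, which attaches haem to cytochrome c (-0.86, -0.85), and COQ2 of ubiquinone synthesis (-0.82, -0.91). Genes of replication among them were GINS4 (-0.88, -1.17) and ORC1 (-0.72, -1.46). Every rho0 array lay beyond its parental arrays for all 63 shared rises and all 84 shared falls. Over all nuclear genes that held for 17% (above) and 16.5% (below) in HT-1080 and for 35.4% and 26.3% in HT-29, and these genes were picked by a test on the same arrays.

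The ATF4 stress response was higher in rho0 cells for part of its genes. Of 32 measured members, 11 rose and 1 fell in the mean of both lines (12 of 32, against 7.61% and 7.0% of all genes), and the list's median change was 0.53 where that of all genes was 0.04. In each line alone 8 members rose (25%, against 6.14% of all genes in HT-1080 and 3.99% in HT-29) and 1 fell, with list medians of 0.32 in HT-1080 and 0.63 in HT-29. Without either HT-1080 rho0 array 1 member rose in HT-1080, and 3 or 4 did without any one of controls 1 to 5. In HT-29 3 rose without its control 1, and 5 without HT-1080 control 3 or 4 or either HT-1080 rho0 array. With the deposited scaling the split in the mean was 7 and 2, and with quantile normalization it was 12 and 1. The count fell to 4 without HT-1080 rho0 replicate 1, to 3 without rho0 replicate 2, and to 3 when only the 3 parental controls with Pt in their deposited names were kept.

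ASNS, which makes asparagine, had signals of 450.8 to 1291 (median 605) in parental HT-1080 and 1566 and 1531 in rho0, and of 928.5, 2605 and 1316 in parental HT-29 and 4925 in rho0. The rho0 arrays were the highest in both lines, and the rise was 1.23 ± 0.35 and 1.74 ± 0.50 (adjusted p = 0.03354 and 0.04717). SLC1A4, a transporter of alanine and serine, went from 21.4 to 65.4 (median 25.5) to 195.5 and 167.4 in HT-1080, and from 115.2, 97.8 and 189.8 to 344.8 in HT-29. It did not overlap in either line and rose by 1.89 ± 0.29 in the mean, past the threshold in HT-1080 (2.41, adjusted p = 0.000669) and not in HT-29 (1.38, adjusted p = 0.09217). CTH, the last enzyme of cysteine synthesis, was at 62.2 to 143.9 (median 94.7) and then 153.2 and 181.3 in HT-1080, and at 158.4, 136.8 and 164.9 and then 467 in HT-29. Both rises passed, at 0.83 ± 0.25 and 1.57 ± 0.35, and CTH and ASNS were the 2 members of the list that rose in both lines. CTH lies within the lower HT-29 run of chromosome 1. SLC38A2, another member of the list, went the other way in HT-1080. Its change was -0.71 there and 0.30 in HT-29, and the line difference passed (-1.01).

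Some members rose in HT-29 alone by the threshold, with no called line difference. FGF21, a hormone known as a circulating marker of mitochondrial disease, read 4.01 to 22.7 (median 12.3) in parental HT-1080 and 3.69 and 27.4 in rho0. Its rho0 signals there lay on either side of the parental range, and all were under the filter level of 47.43. In HT-29 it read 13.7, 6.98 and 17.5 in parental cells and 162.3 in rho0, a change of 3.22 ± 0.73 (adjusted p = 0.01772), and the adjusted p of the line difference was 0.05599. ATF4 itself was at 2468 to 4223 in parental and 3177 and 3374 in rho0 HT-1080, within the parental range, and rose in HT-29 from 2763, 2759 and 3456 to 5602 (0.91 ± 0.24, adjusted p = 0.03589). NUPR1 (3.16), VLDLR (1.88) and CARS1 (0.93) also passed in HT-29, and CEBPG (0.78) and SLC3A2 (0.57) in HT-1080. ATF5 fell in HT-29 by 1.52. GDF15, the other circulating marker of mitochondrial disease, rose in HT-1080 only by the threshold: it went from 333.2 to 1005 (median 652.3) to 1835 and 2077 (1.71 ± 0.35, adjusted p = 0.005742), and in HT-29 it stayed between its parental signals at 754.3 (-0.04 ± 0.49). For GDF15 the line difference was 1.75 (adjusted p = 0.1078). The classical members DDIT3, TRIB3 and CHAC1 had mean changes of 0.90, 0.31 and 0.79 and did not pass. In that order their changes were 0.37, -0.25 and -0.18 in HT-1080 and 1.44, 0.88 and 1.76 in HT-29.

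HT-1080 parental control 6 stood apart in this list. Taken as the median over members of the difference from the parental mean, it was at 0.60 with 29 of 32 members above that mean, and parental controls 1 to 5 lay between -0.21 and -0.01. The 2 HT-1080 rho0 arrays were at 0.37 and 0.30, so they lay above 5 parental arrays and below control 6. CHAC1 read 330.2 on control 6 and 15.7 to 56.9 on the other 5. In HT-29 the parental arrays were at -0.10, 0.05 and 0.05 and rho0 at 0.63. Control 6 and the HT-29 rho0 array had 0 missing values, while every other control array had 48 or 232. The sources used here do not say why, and a shared handling of these arrays was not tested. In HT-29 such a difference cannot be told apart from the loss of mtDNA. Without control 6, 17 members of the list rose and 1 fell in the mean.

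Enzymes that make serine and its one-carbon units moved in the same direction in part. Of 14 measured members of the serine, one-carbon and proline list, 5 rose and 1 fell in the mean (3 and 2 with the deposited scaling), with a median of 0.37. These were 35.7% and 7.14% of the list, against 7.61% and 7.0% of all genes. ASNS is 1 of the 5 and was also counted in the ATF4 list. The list's HT-1080 median of 0.30 was 0.41 without rho0 replicate 1 and 0.20 without rho0 replicate 2. PHGDH, the first enzyme of serine synthesis, was at 122.5 to 339.5 (median 212.1) in parental HT-1080 and 403.6 and 355.5 in rho0, and at 237.3, 262.9 and 360.5 in parental HT-29 and 1460 in rho0. Its rho0 arrays lay above the parental ones in both lines, and it rose by 1.59 ± 0.24 in the mean (adjusted p = 0.001402). In HT-29 alone PHGDH rose by 2.35 ± 0.39, and in HT-1080 its change of 0.83 ± 0.28 did not pass. PSAT1 and PSPH, the next enzymes of the path, rose by 0.63 and 0.52 in the mean, and SHMT2, which turns serine into glycine in mitochondria, rose by 0.54. MTHFD2, the folate enzyme often raised in mitochondrial disease, had a mean change of 0.30 ± 0.11 and did not pass (adjusted p = 0.07689). Its close relative MTHFD2L fell by 0.87. Thymidylate synthase (TYMS) moved in opposite directions, up by 0.53 in HT-1080 and down by 0.59 in HT-29, both past the threshold.

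**Figure D3:**
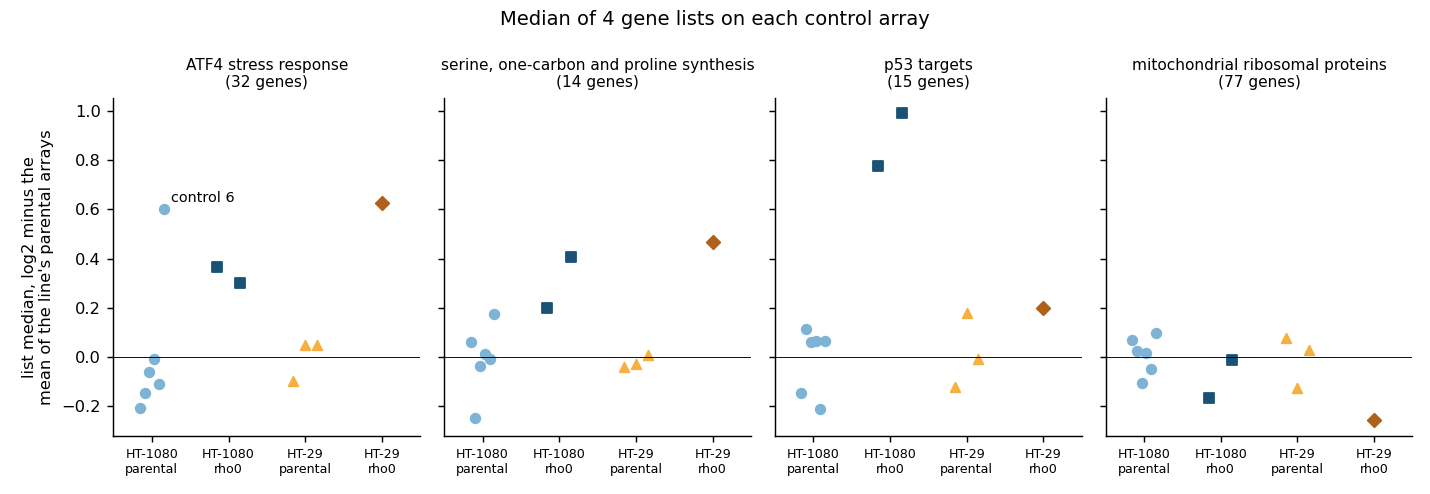
Median over a gene list of each array's log2 difference from the parental mean of its line, for the ATF4, serine, p53 and mitochondrial ribosomal protein lists, 1 point per control array. Control 6 of parental HT-1080 (0.60 in the ATF4 list) lies above both of its rho0 arrays (0.37 and 0.30), and the p53 list separates HT-1080 rho0 (0.78 and 0.99) but not HT-29 rho0 (0.20) from the parental arrays.

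Promoter sequences bear on this list because ATF4 with a C/EBP partner binds an amino acid response element, searched here as TGATGNAA on both strands in the 250 bases before each gene's start (RefSeq, GRCh38.p14). It was found before 6 of the 29 genes of the ATF4 list with a promoter entry (20.7%), 4 of the 10 that rose in the mean (40%), 3.89% of all 27305 promoters and 2.58% of the genes tested. Of the genes higher in both lines, 2 of 53 had it (3.77%). The 4 risers with a match are shown because they carry the element of a list that moved, 100 bases each on the strand of the gene, with the match in capitals (on the opposite strand in FGF21). They are ASNS at chr7:97872423-97872522 on the minus strand, ATF3 at chr1:212565170-212565269, CEBPG at chr19:33374013-33374112 and FGF21 at chr19:48755424-48755523 on the plus strand.
ASNS: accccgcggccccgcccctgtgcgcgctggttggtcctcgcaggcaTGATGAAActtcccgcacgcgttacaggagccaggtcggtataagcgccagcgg
ATF3: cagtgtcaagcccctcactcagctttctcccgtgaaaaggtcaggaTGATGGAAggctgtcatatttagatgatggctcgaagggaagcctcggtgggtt
CEBPG: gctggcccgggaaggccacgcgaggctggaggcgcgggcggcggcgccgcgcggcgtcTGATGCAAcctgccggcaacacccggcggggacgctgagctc
FGF21: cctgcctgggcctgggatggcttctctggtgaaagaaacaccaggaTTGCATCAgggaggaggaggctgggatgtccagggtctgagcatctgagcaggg
The matches start 68, 191, 42 and 54 bases before the gene's start in that order, and a match describes the letters only.

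Proteins of the mitochondrial ribosome, which translates the mRNAs of mtDNA, were lower in rho0 cells for part of the list. Of 77 measured genes, 22 fell and 1, DAP3, rose in the mean of both lines (23 of 77), with a median of -0.23. In HT-29 16 fell (20.8%, against 3.92% of all genes) and none rose, with a median of -0.26, and in HT-1080 10 fell (12.99%, against 6.89%) and 3 rose, with a median of -0.09. Without either HT-1080 rho0 array 1 member fell in HT-1080, and without HT-29 control 1 10 fell in HT-29. The line difference passed for 6 members, each less lowered or higher in HT-1080. With the deposited scaling 45 fell and none rose. The count was 12 without HT-1080 rho0 replicate 1 and 15 without rho0 replicate 2.

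MRPL37 of the large subunit had signals of 1020 to 1274 (median 1250) in parental HT-1080 and 967.5 and 835.6 in rho0, and of 1659, 1651 and 1815 in parental HT-29 and 921 in rho0. The groups did not overlap, and it fell by 0.65 ± 0.10 in the mean (adjusted p = 0.001624). MRPL37 lies in the HT-29 run of chromosome 1. MRPS18C of the small subunit went from 1340 to 1832 (median 1574) to 1142 and 1107 in HT-1080, and from 1175, 1154 and 977.8 to 607.1 in HT-29, again with no overlap. It fell by 0.48 ± 0.13 and 0.85 ± 0.18, and MRPL1, MRPS6 and MRPS26 likewise passed in both lines. MRPL13 moved in opposite directions: it went from 1141 to 1340 (median 1230) up to 1467 and 1608 in HT-1080, and from 4041, 4315 and 3829 down to 1622 in HT-29. Its changes were 0.31 ± 0.10 and -1.32 ± 0.14, with a line difference of 1.63 (adjusted p = 0.0006145).

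The ETS motif CCGGAAG, a binding sequence of GABPA that is common before genes of the mitochondrion, was found within 250 bases before the start of 24 of the 69 mitochondrial ribosomal genes with an entry (34.8%) and of 8 of the 20 that fell (40%), on either strand. It was found before 10.2% of all promoters, 19.5% of the genes tested and 21.3% of the 80 shared falls with an entry. MRPL27 and MRPS18C, which fell and carry it, are shown as examples with the motif in capitals, MRPL27 at chr17:50373185-50373284 on the minus strand and MRPS18C at chr4:83455808-83455907 on the plus strand.
MRPL27: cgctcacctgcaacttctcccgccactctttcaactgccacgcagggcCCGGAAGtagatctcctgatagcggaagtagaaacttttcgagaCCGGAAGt
MRPS18C: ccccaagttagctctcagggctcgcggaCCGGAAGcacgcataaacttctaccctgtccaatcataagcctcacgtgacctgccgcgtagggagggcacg
The motif stands in both the window of a gene that fell in both lines (MRPS18C) and that of one that passed in HT-29 alone (MRPL27, -0.76 against -0.05 in HT-1080).

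Nuclear subunits of the respiratory chain moved in both directions, where 7.61% of all genes rose and 7.0% fell in the mean. Of 33 measured subunits of complex I, 3 rose and 5 fell in the mean (1 and 13 with the deposited scaling), and the list's median was -0.06. Of the 5 falls 4 (NDUFC1, NDUFA1, NDUFB4 and NDUFB11) lay in lower HT-1080 runs, and outside the runs 1 of 28 members fell, NDUFAB1. NDUFC1 had signals of 2880 to 3403 (median 3166) in parental HT-1080 and 1610 and 1729 in rho0, and of 2360, 2780 and 2608 in parental HT-29 and 1759 in rho0. It did not overlap in either line and fell by 0.91 ± 0.10 and 0.55 ± 0.14 (adjusted p = 8.789e-05 and 0.02909). NDUFV1, which binds NADH, rose by 0.55 in the mean. None of the 11 measured subunits of complexes II and III passed in the mean, with a median of 0.01. In complex IV 3 of 12 rose and 1 fell: COX7A2, COX5B and COX6C rose by 0.38, 0.33 and 0.29, and COX7B fell by 0.48, a split that was 0 and 1 with the deposited scaling. COX7B lay in the lower X run and COX7A2 in the higher run of chromosome 6 of HT-1080. In the ATP synthase ATP5F1D rose by 0.71 and the inhibitor ATP5IF1, in the HT-29 run of chromosome 1, fell by 0.44, 2 of 17 measured genes. COX4I1 read 3883 to 4811 in parental and 4371 and 4733 in rho0 HT-1080, an overlap, with a mean change of 0.13 ± 0.08.

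**Figure D4:**
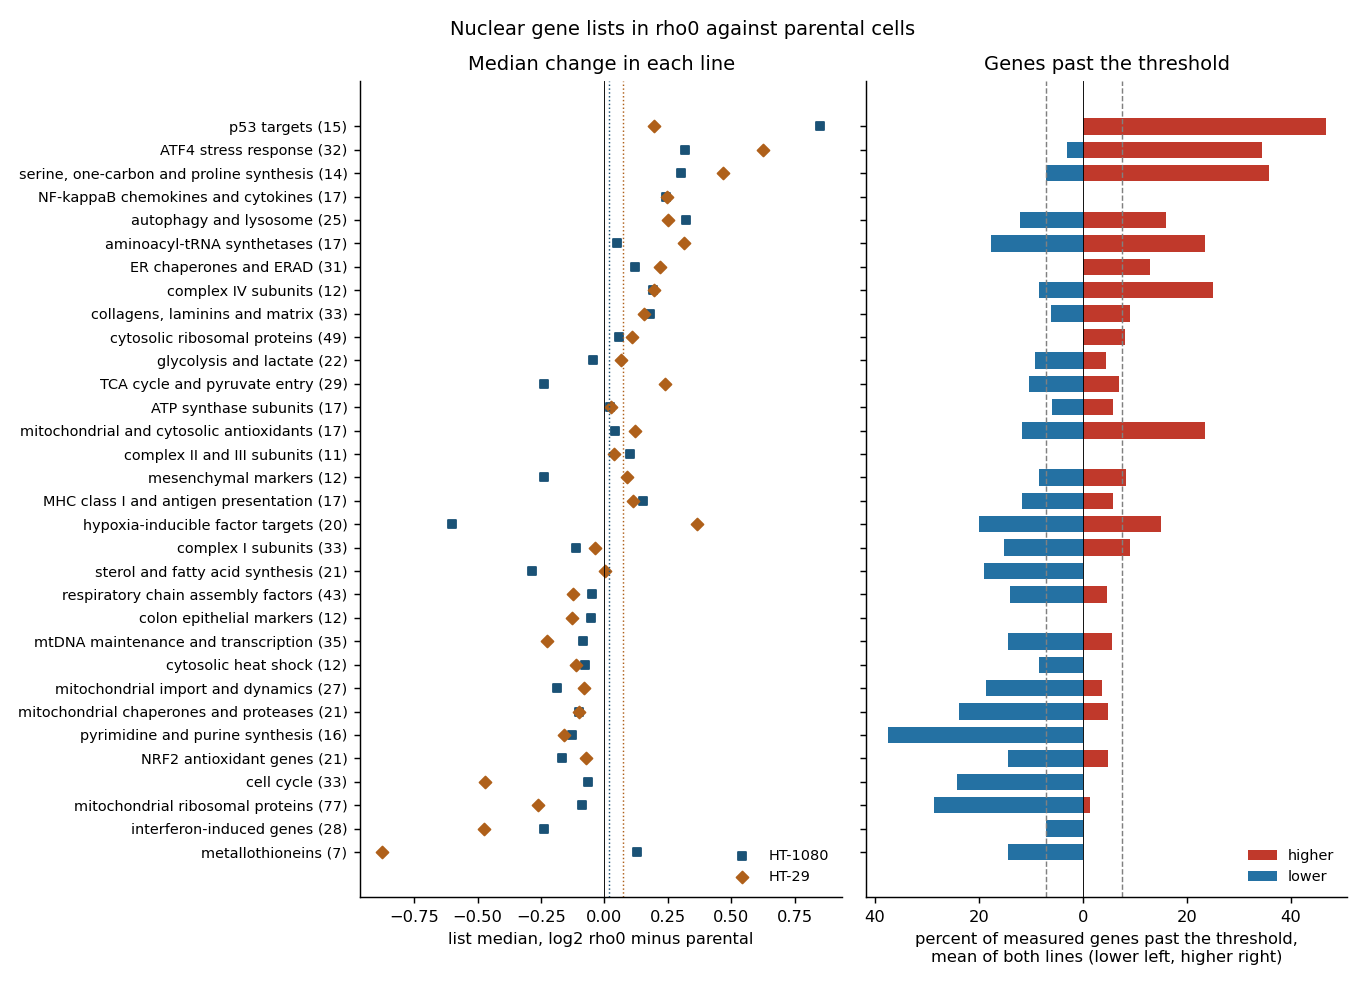
Left, median log2 change of each of 32 lists of nuclear genes in HT-1080 and HT-29, with dotted lines at the medians of all genes (0.02 and 0.07). Right, percent of each list's measured genes that rose or fell in the mean of both lines, with dashed lines at the background of 7.61% and 7.0%, where the p53 (46.7%), serine (35.7%) and ATF4 (34.4%) lists have the highest shares of rises.

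Among 43 assembly factors of the respiratory chain, 2 rose (4.65%, against 7.61% of all genes) and 6 fell (13.95%, against 7.0%), and 4 of the falls lay outside the runs. ATPAF1, which assembles the F1 part of the ATP synthase, went from 243.6 to 312.7 (median 270.5) to 219.5 and 173.3 in HT-1080, and from 375.9, 399.6 and 401.8 to 148 in HT-29. Its arrays did not overlap, and it fell by 0.93 ± 0.13 in the mean (adjusted p = 0.0008355). ATPAF1, COA7 and ATAD3A lie in the HT-29 run of chromosome 1. COA7, a complex IV assembly factor, fell by 1.82 in HT-29 and had a change of -0.27 in HT-1080, with a line difference of 1.55 (adjusted p = 0.01168). Among 35 genes of mtDNA maintenance and transcription, 5 fell (14.3%) and 2 rose (5.71%) in the mean, with 4 of the falls outside the runs. TFAM, the protein that packages mtDNA and starts its transcription, had signals of up to 1453 (median 1256) in parental HT-1080, the lowest just under the rho0 arrays at 1081 and 1121, and of 1409, 1028 and 1235 in parental HT-29 and 674.6 in rho0. It fell in HT-29 by 0.84 ± 0.19 (adjusted p = 0.01939), while in HT-1080 the arrays overlapped and the change was -0.19 ± 0.14. MTERF3, a repressor of mtDNA transcription, fell in both lines by 0.46 and 0.91, and ATAD3A of the nucleoid fell by 0.83 in the mean. The polymerase POLG fell in HT-1080 (-0.80 ± 0.17, adjusted p = 0.00708) and not in HT-29 (-0.03 ± 0.24).

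Of 21 mitochondrial chaperones and proteases 5 fell (23.8%, against 7.0% of all genes) and 1, HTRA2, rose. The deepest fall in the mean was that of the protease OMA1 (-0.95), which lies in the HT-29 run, and HSPE1 and HSPD1, partners in the folding chamber of the matrix, fell by 0.45 and 0.25 in the mean. HSPA9 (-0.19 ± 0.11) and, over the lines, LONP1 (0.42 ± 0.14) did not pass. LONP1, the protease of the matrix, rose in HT-29 from 300.3, 338.5 and 429.2 to 733, by 1.05 ± 0.23, and had a change of -0.20 ± 0.17 in HT-1080 (line difference -1.24, adjusted p = 0.02398). Of 27 genes of import and dynamics 5 fell (18.5%) and 1 rose. TIMM8A, a carrier of the intermembrane space encoded in the HT-1080 run of chromosome X, fell in both lines. VDAC3 and the fusion protein MFN2, the latter in the HT-29 run, fell by 0.71 and 0.96 in the mean, and 3 of the 5 falls lay outside the runs. In the TCA cycle and pyruvate entry list (29 genes) PCK2, the mitochondrial enzyme that makes phosphoenolpyruvate, rose by 1.73 with GLUD1 (0.59), and PDHB, PDP1 and IDH3A fell by 0.48, 0.48 and 0.49.

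In glycolysis, on which rho0 cells depend, 1 of 22 measured genes rose (BSG, the partner of lactate transporters, by 0.68) and 2 fell (PGK1 by 0.43 and ENO1 by 0.38), PGK1 in the HT-1080 run of chromosome X and ENO1 in the HT-29 run of chromosome 1. Outside the runs none of 19 members fell in the mean. The list's shares were 4.55% higher and 9.09% lower, against 7.61% and 7.0% of all genes. The lactate dehydrogenases LDHA and LDHB had mean changes of -0.05 ± 0.06 and 0.04 ± 0.08. Of 16 genes of nucleotide synthesis 6 fell and none rose in the mean, and 4 of the 6 (UMPS, CTPS1, PRPS1 and PRPS2) lay in a run. Outside the runs 2 of 11 fell, PPAT by 0.58 and PAICS by 0.38. UMPS, which completes UMP, went from 856.9 to 1095 (median 922.9) to 649.1 and 636.4 in HT-1080, and from 1182, 943.7 and 1049 to 614.9 in HT-29. No rho0 array of UMPS reached the parental range, and it fell by 0.55 ± 0.13 and 0.77 ± 0.18. CTPS1, which makes CTP, fell by 1.83 in HT-29 with a change of -0.26 in HT-1080 (line difference 1.58, adjusted p = 0.002975). DHODH, the enzyme that needs electron transport, had a mean change of -0.16 ± 0.17 and did not pass. In the cell cycle list 8 of 33 fell and none rose, with medians of -0.07 in HT-1080 and -0.47 in HT-29. CCNA2 (cyclin A2) fell by 0.74 and 1.16, the licensing factor MCM2 by 0.46 and 0.67, and RRM2 fell by 1.60 in HT-29 only by the threshold, with a line difference of 1.57. MCM2 lies in the HT-1080 run of chromosome 3, and outside the runs 6 of 31 members of the list fell in the mean.

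In the lists of other stress pathways genes passed in both directions in some and in 1 direction in others. Over all genes 7.61% rose and 7.0% fell in the mean, and several lists lay near these shares. Among them were interferon-induced genes (7.14% fell), cytosolic ribosomal proteins (8.16% rose) and matrix genes (9.09% rose and 6.06% fell). Of 31 ER chaperones and degradation genes 4 rose and none fell, but with the deposited scaling 1 rose and 3 fell. ERN1 and XBP1, sensor and effector of the unfolded protein response, rose by 0.95 and 0.60, while the chaperone HSPA5 read 3498 to 4422 in parental and 3534 and 3724 in rho0 HT-1080, with a mean change of -0.12 ± 0.09. Of the NRF2 genes 1 of 21 rose, HMOX1 by 1.52, and 3 fell, and of the antioxidant enzymes 4 of 17 rose, among them mitochondrial SOD2 (0.95), PRDX2 (0.55) and GPX4 (0.68), and 2 fell. Among 17 aminoacyl-tRNA synthetases 4 rose and 3 fell (2 and 4 with the deposited scaling). Sterol and fatty acid synthesis had 4 falls and no rise among 21, led by NSDHL (-0.69) and INSIG1 (-1.26), and the autophagy and lysosome list had 4 rises, among them WIPI1 (1.59), NPC1 (0.75) and NPC2 (0.89), and 3 falls among 25. Of 28 interferon-induced genes 2 fell, ISG15 (-0.82) and SP100 (-0.53). None of 17 NF-kB genes passed in the mean. Cytosolic ribosomal proteins had 4 rises of 49, of 0.20 to 0.36, and 11 falls and no rise with the deposited scaling. Of the remaining lists, 3 rose and 2 fell of 33 matrix genes, 1 and 2 of 17 antigen presentation genes, 0 and 1 of 12 heat shock genes, and 0 and 1 of 7 metallothioneins. Of the marker lists, 1 rose and 1 fell of 12 mesenchymal genes, and none of 12 colon epithelial genes passed in the mean.

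Targets of p53 were raised in HT-1080 rho0. In that line 9 of 15 measured targets rose (6.14% of all genes did) and none fell, with a median of 0.85, and in HT-29 1 rose (3.99% of all genes), with a median of 0.20. Outside the runs 7 of 10 rose in HT-1080, against 5.84% of all genes there. Without either HT-1080 rho0 array 3 rose in HT-1080, with a median of 0.99 without replicate 1 and 0.78 without replicate 2. In the mean 7 rose, which became 2 with the deposited scaling, 3 without HT-1080 rho0 replicate 1, 2 without rho0 replicate 2, and 4 without HT-1080 control 4 or 5 or HT-29 control 1. RRM2B, the p53-inducible subunit of ribonucleotide reductase that supplies nucleotides for mtDNA, had signals of 187.3 to 317.9 (median 254.4) in parental HT-1080 and 795.1 and 938.2 in rho0. In HT-29 its signals were 125.8, 125.7 and 136.2 in parental cells and 80.4 in rho0, on the other side. The change was 1.76 ± 0.19 in HT-1080 and -0.65 ± 0.27 in HT-29, and the line difference was 2.40 (adjusted p = 0.002322). GADD45A, a growth arrest gene, went from 813.3 to 1170 (median 991.2) to 2440 and 1983 in HT-1080, and from 151.2, 282.1 and 185.4 to 114.8 in HT-29. Its line difference of 1.92 passed as well (adjusted p = 0.008281), and these 2 were the only members for which it did. ZMAT3 alone rose in both lines, and MDM2, BAX, FAS, SESN1, TP53INP1 and PHLDA3 rose in HT-1080 by 0.71 to 1.78. The difference between lines in the list as a whole was not tested.

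Targets of hypoxia-inducible factor were on opposite sides of 0 in the lines. In HT-1080 7 of 20 fell and 1 rose, with a median of -0.60, and in HT-29 2 rose and none fell, with a median of 0.37. Outside the runs 4 of 15 fell in HT-1080, against 4.94% of all genes there. STC1 (stanniocalcin 1) was at 3771 to 4910 (median 3962) in parental HT-1080 and 901.4 and 1028 in rho0, a fall of 2.08 ± 0.29. HT-29 had little of it, at 8.96, 21 and 2.30 in parental cells and 10.4 in rho0. ANKRD37 fell in HT-1080 by 1.63, BNIP3L by 0.80, and CA12 had a change of -2.19 (adjusted p = 0.004263). VEGFA rose in HT-29 by 1.35 and had a change of -0.04 in HT-1080, with a line difference of -1.39 (adjusted p = 0.04813). The line difference passed for 4 members in all (STC1, MXI1, BNIP3L, VEGFA), each lower in HT-1080. STC1 was near background in HT-29, where a fall could not be seen, so for STC1 the line difference follows from its level in HT-1080.

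Many genes passed in 1 line together with the line difference, with under 50% of that change, or an opposite one, in the other line. They were 82 higher (0.716%) and 141 lower (1.23%) in HT-1080, and 145 higher (1.27%) and 168 lower (1.47%) in HT-29, which made 227 higher (1.98%) and 309 lower (2.70%), 536 in all (4.68%). That count was 241 without HT-1080 rho0 replicate 1, 176 without rho0 replicate 2 and 959 without HT-29 parental control 2. In HT-1080 the 5 largest rises by line difference were PAGE1 and MAGEC2 (cancer-testis antigens of chromosome X), C3 (complement component 3), CD70 (a ligand of the TNF family) and ALDH1A3 (which makes retinoic acid). C3 had signals of 4.29 to 50.9 (median 16.5) in parental HT-1080 and 474.8 and 580.3 in rho0, and of 2.63, 3.30 and 11.7 in parental HT-29 and 2.17 in rho0. Only the HT-1080 rho0 arrays were high, and the change was 4.51 ± 0.53 there and -0.46 ± 0.75 in HT-29 (line difference 4.97, adjusted p = 0.009005). The 5 largest falls were CSTA (cystatin A), NID1 (nidogen 1 of basement membranes), MAP2K6 (a kinase upstream of p38), CXCL8 (interleukin 8) and TREM1. NID1 went from 74.9 to 116.8 (median 105.6) to 2.86 and 0.356 in HT-1080, by -3.82 ± 0.33, and was at background in all HT-29 arrays, where no fall could be seen. CSTA went from 65.4 to 322.6 (median 154.3) to 26.8 and 14.7 in HT-1080, a fall of 2.61 ± 0.42, and read 15.1, 11.4 and 16.8 in parental and 72.1 in rho0 HT-29. MAP2K6 passed in both lines, with -2.43 in HT-1080 and 1.46 in HT-29.

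In HT-29 the 5 largest rises were TMEM132D-AS1, ASS1, DDIT4, WFDC21P and GJA1, and the 5 largest falls were KLK6, SPINK1, NNT, KLK10 and KLK8. HT-1080 controls had at most 5.79 of KLK10, 12 of KLK8 and 17.1 of SPINK1, so no fall could be seen there, and the line difference follows from their level in HT-29. ASS1, which makes argininosuccinate on the way to arginine, was at 23.1, 88.0 and 106.8 in parental HT-29 and 1446 in rho0, and at 6.53 to 14.6 (median 9.16) in parental HT-1080 and 2.04 and 11.9 in rho0. Only HT-29 rho0 had a high signal, with a change of 4.43 ± 0.65 (line difference -4.82, adjusted p = 0.005663). DDIT4, an inhibitor of mTORC1, went from 80.9, 256.9 and 552 to 2850 in HT-29 (3.61 ± 1.00, adjusted p = 0.04203). In HT-1080 it read 90.0 to 732.8 (median 128) in parental cells, where 732.8 was control 6, and 73.8 and 117.9 in rho0. The kallikrein peptidases KLK6, KLK8 and KLK10, neighbours on chromosome 19, fell together: KLK10 went from 5511, 4232 and 4615 to 367.1 (-3.67 ± 0.36) and KLK6 from 1292, 4033 and 896.9 to 29.7 (-5.56 ± 0.58). KLK6 passed in the other direction in HT-1080, from at most 10.4 to 29.3 and 25.5. NNT, the transhydrogenase that makes mitochondrial NADPH, also moved in opposite directions: it read 18.2 to 45.6 (median 26.0) in parental HT-1080 and 99.9 and 94.7 in rho0, and 16.7, 98.3 and 14.9 in parental HT-29 and 0.217 in rho0. Its changes were 1.60 ± 0.50 and -2.57 ± 0.70, with HT-29 control 2 far from the other 2 parental arrays.

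Part of the nuclear differences lay in long runs of neighbouring genes on a chromosome. A run was a stretch of at least 50 genes with a running median over 41 genes of at least 0.4 in size, a rule chosen after the data were seen, with gene order from RefSeq GRCh38.p14. By this rule HT-29 rho0 had 1 run and HT-1080 rho0 had 6. Other settings placed further runs in HT-29. Among them were a higher run on chromosome 6 with a window of 21 genes or a threshold of 0.3, and lower runs on chromosomes 4 and X with the deposited scaling. In HT-29 590 genes of chromosome 1, from MRPL20-AS1 to HIPK1, had a median of -0.53, with 497 of them below 0 (84.2%) and 157 past the threshold, while the same genes had a median of -0.07 in HT-1080. In HT-1080 296 genes of chromosome X, from WWC3 to MAP7D3, had a median of -0.54, and 102 genes of chromosome 4, from BBS12 to TENM3-AS1, one of -0.89. The other HT-1080 runs were lower on chromosome 3 (LNP1 to AADACP1, 187 genes, -0.45) and chromosome 8 (SORBS3 to SFRP1, 73 genes, -0.44), and higher on chromosome 6 (LMBRD1 to MRPL18, 229 genes, 0.52) and chromosome 8 (FBXO32 to CPSF1, 76 genes, 0.39). In HT-29 the chromosome 6 genes had a median of 0.24, with 29 called higher, and the X genes one of -0.18, with 27 called lower. The HT-29 medians were 0.03 on chromosome 3, -0.09 on chromosome 4, and 0.13 and -0.29 in the lower and higher runs of chromosome 8.

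**Figure D5:**
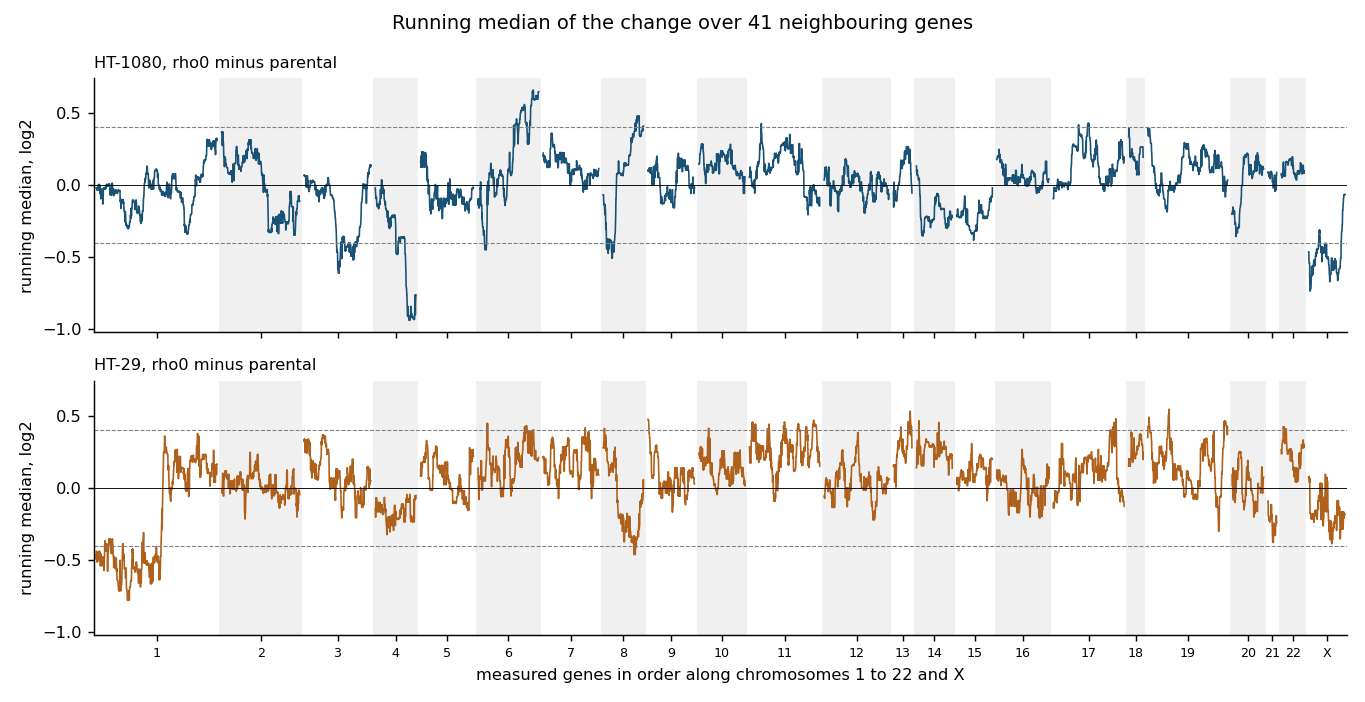
Running median over 41 neighbouring genes of the log2 change (rho0 minus parental) along chromosomes 1 to 22 and X, in HT-1080 and HT-29, with dashed lines at 0.4 and -0.4. The HT-29 curve lies low along much of chromosome 1, and the HT-1080 curve is low on chromosomes 3, 4 and X and high on chromosome 6.

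In 6 of the 7 runs no stressed rho0 array overlapped the stressed parental arrays. On chromosome X the median of the run was -0.53 on both HT-1080 rho0 controls and -0.56 to -0.49 on 3 stressed HT-1080 rho0 arrays, against -0.08 to 0.09 on 18 stressed parental arrays. On chromosome 1 it was -0.53 on the HT-29 rho0 control and -0.59 on the stressed HT-29 rho0 array, against -0.14 to 0.01 on 4 stressed parental HT-29 arrays. On chromosome 4 the 3 stressed HT-1080 rho0 arrays had -1.07 to -0.67, and the 18 stressed parental arrays reached -0.47. On chromosome 3 they had -0.62 to -0.45, on chromosome 6 they had 0.38 to 0.55 (0.49 and 0.51 on the rho0 controls), and in the lower run of chromosome 8 they had -0.52 to -0.40. In the higher run of chromosome 8 they had 0.22 to 0.48, which overlapped the stressed parental arrays (up to 0.23). Runs held 8.41% of the nuclear genes in HT-1080 and 5.15% in HT-29, but 32.8% of the HT-1080 falls and 35.0% of the HT-29 falls. Of the 84 shared falls 45 (53.6%) lay in a lower run of either line, among them TXLNG, TSR2, ERCC6L, JADE1, TRIM61 and GNL2. Of the 63 shared rises 15 (23.8%) lay in a higher run, among them MICAL1. Chromosome X held 21 shared falls and chromosome 4 held 20, with 3.27% and 3.60% of the nuclear genes. Of the 20 on chromosome 4 only 5 lay in its run. AFAP1-AS1, CISD2, COQ2, CCNA2, MRPL1 and MRPS18C were among those outside it. The genes outside the runs therefore still include shared falls gathered on chromosome 4. Outside the runs of both lines (9897 genes) 47 genes rose and 39 fell in both lines, and 17 of 71 mitochondrial ribosomal genes fell and 1 rose in the mean. DNA copy number was not measured here, and loss of mtDNA and any other difference that the derivative lines carry cannot be told apart.

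The stressed arrays held the shared genes in cultures that did not enter the test by which these genes were selected. The stressed arrays did enter the filter on low values and the choice of probe set for each gene. With filter and probe set taken from the 12 control arrays, 141 of the 147 shared genes remained. Each stressed rho0 array was set against the stressed parental arrays of its line, with 1 rho0 array each and so no test. Of the 63 shared rises, 51 were higher in rho0 under 2DG, 48 under GS and 61 under TM in HT-1080 (18 h each), and 49 under GS in HT-29 (14 h). Over all nuclear genes 44.4%, 51.0%, 50.1% and 54.3% were higher in these 4 comparisons. Of the 84 shared falls, 71, 62, 83 and 70 were lower, and 85 of the 147 shared genes kept their side in all 4. The HT-1080 rho0 array under GS included floating cells and the parental GS arrays did not. PTPRO differed by -6.92, -7.43 and -6.35 in HT-1080 and -5.69 in HT-29, and TPP1 by 0.82, 0.59, 1.17 and 0.97. C3 differed by 4.75, 4.99 and 4.93 in HT-1080 and 0.31 in HT-29, and KLK6 by 1.86, 1.06 and 1.71 and -4.98. The p53 list had medians of 1.06, 0.87 and 0.98 in HT-1080 and 0.08 in HT-29. The mitochondrial ribosomal list had 0.19 under 2DG and 0.37 under GS in HT-1080, on the other side from the controls, and -0.21 under TM and -0.09 in HT-29. The cell cycle list had 0.57, 0.88 and -0.43 in HT-1080 and 0.07 in HT-29, likewise higher under 2DG and GS. The ATF4 list did not keep its side either: its medians were -0.69, -0.67 and -0.13 in HT-1080 and -0.15 in HT-29, and ASNS differed by -1.49, -0.96, -0.13 and 0.28.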

How the data were processed

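Total RNA of each culture was labelled as biotinylated cRNA and hybridized to an Affymetrix U133 Plus 2.0 array, per the labels' protocols. The deposited values are MAS5 signals, per the submitters' processing notes, on a linear intensity scale. MAS5 settings and version are not given in the sources used here.

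Arrays were brought to 1 trimmed mean (2% off each end, 118.6), and log2(signal + 5% of that mean, 5.93) was taken. Of 54675 probe sets, the 41097 with a single gene symbol in the platform annotation were kept, leaving out 1801 with several symbols and 11777 without one. The filter asked for 40% of the trimmed mean (47.43) on 2 or more of the 38 arrays and left 21492. The probe set with the highest mean stood for its gene, giving 11457 genes (7 on mtDNA). Of these, 3 had missing values on control arrays.

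The 12 control arrays were fitted in limma 3.58.1 (R 4.3.3) with 1 mean per group (8 residual degrees of freedom) and an intensity trend. Contrasts were each line, their equal-weight mean and their difference, two-sided, with Benjamini-Hochberg adjustment over all genes at 0.05. SE is the limma standard error. Lists were described by counts and medians. Gene order and promoters came from RefSeq tables of GRCh38.p14 (11423 genes placed, 9404 with a promoter).

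Genes named were the 10 largest shared rises and falls by the smaller change, the 5 largest per line and direction by line difference (every rho0 array beyond the parental arrays), up to 4 members per list and 24 measured genes fixed by name. Other list members and shared genes were named after their values were seen. The members, lists and tests were chosen with earlier results of these data known. Replicate numbers did not pair the cultures (correlations of deviations -0.06 to 0.11). Data were simulated with the same design, with changes only in genes whose mean lay above the trimmed mean of 118.6. The 1-line changes were put into HT-1080 only. Genes below that level and changes in HT-29 alone were not simulated. Of log2 changes of 1, 89% were recovered in HT-1080, 47% in HT-29 and 43% in both lines. For changes in 1 line with a tested difference it was 33%. Of changes of 2, 90% were recovered in the last case and 99% or more in the others. Alternatives were other offsets, filters, scalings, probe set choices, variance models and subsets of arrays, and leaving out each array. The number of arrays limits the precision.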

Additional observations from a re-analysis of the deposited data

Results flagged for a closer look

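Among 169 named genes, 9 had 1 of the 6 parental HT-1080 arrays far from the others (a gap of more than 0.625 of the range, which chance gives in about 1 in 20 groups). On control 6 the signal was the highest for ASNS (1291), KLK10 (5.79), NDUFB8 (2796), PCK2 (252.2), SLC1A4 (65.4) and STC1 (4910), and the lowest for IDH3A (349.4). PAGE1 was highest on control 2 (95.7) and SP100 on control 5 (500.8).

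The change from parental to rho0 differed between the lines, by the test of the difference, for 51 named genes. The values that follow are the HT-1080 change minus the HT-29 change on the log2 scale. Higher in HT-1080 were KLK6 (6.92), PAGE1 (5.36), CD70 (5.09), C3 (4.97), ALDH1A3 (4.70), SPINK1 (4.29), MAGEC2 (4.18), NNT (4.18), KLK10 (3.71), KLK8 (3.69) and AFAP1-AS1 (3.51). So were RRM2B (2.40), GADD45A (1.92), COL6A2 (1.89), GCLM (1.78), MRPL13 (1.63), CTPS1 (1.58), RRM2 (1.57), COA7 (1.55), MT1X (1.51), DERL1 (1.35), KRT8 (1.32) and TYMS (1.12). Smaller positive differences were those of MRPL20 (0.97), MT-ND2 (0.84), CYC1 (0.74), TMEM70 (0.70), PGD (0.67) and ENO1 (0.47).

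Lower in HT-1080 were TMEM132D-AS1 (-6.11), ASS1 (-4.82), CSTA (-4.55), DDIT4 (-4.44), WFDC21P (-4.01), GJA1 (-3.96), MAP2K6 (-3.89), CXCL8 (-3.87), TREM1 (-3.72) and NID1 (-3.71). So were HLA-DRA (-3.17), MT-ND6 (-2.42), FBN1 (-2.35), HLA-DMA (-2.32), TXNIP (-2.27), STC1 (-2.21), IL11 (-2.03), MXI1 (-1.79), MSMO1 (-1.68), LONP1 (-1.24), SLC38A2 (-1.01) and ATP5MJ (-0.62). Of these, HLA-DRA and HLA-DMA of antigen presentation changed in HT-1080 by -3.32 and -1.26, from parental signals of 131.5 to 331.3 and 85.8 to 138.3, and TXNIP, a sensor of glucose supply, rose in HT-29 by 1.63.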

How the results depend on the processing

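Loss of all 7 mtDNA transcripts held under every alternative, and the runs on HT-29 chromosome 1 and HT-1080 chromosomes 4 and X under every one that was run. Leaving out each array in turn gave 348 to 2205 genes in HT-1080 (1492 with all arrays), 538 to 1319 in HT-29 (906), 911 to 2303 in the mean of both lines (1672), 202 to 1130 in the line difference (641), 32 to 284 in both lines (147), 176 to 959 in 1 line (536), 1487 to 1725 in runs (1553), 3 to 18 of the ATF4 list (12) and 12 to 29 of the mitochondrial ribosomal list (23). The lowest counts in HT-1080, in the mean and in the difference came without an HT-1080 rho0 array, and the highest without HT-29 control 2.

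With the replicate number as a block, though the numbers do not pair the cultures, the counts were 486 in HT-1080, 208 in HT-29, 814 in the mean, 17 in the difference, 27 in both lines, 16 in 1 line and 11 of the ribosomal list. With only the 3 parental controls named Pt they were 370 in HT-29, 44 in both lines, 3 of the ATF4 list and 12 of the ribosomal list. Arrays of the same line only left 3 genes in HT-29 and 2 in both lines. Without the filter there were 423 in the difference, 88 in both lines, 345 in 1 line and 778 in runs, and with the deposited scaling 348 in both lines, 2797 in runs and 45 of the ribosomal list. Without the intensity trend 81 genes passed in both lines and 5 of the ATF4 list. An additive model of line and mtDNA gave 6 of the ATF4 list and 15 of the ribosomal list.

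Added after seeing the data, leaving out the runs gave 86 genes in both lines, and thresholds of 0.3 and 0.5 put 2986 and 883 genes in runs. JADE1 turned to 0.32 in HT-29 when the probe set was chosen on the 12 controls, and with the mean of all probe sets RPL36 turned to -0.32 in HT-29 and -0.084 in the mean, and RPL31 to -0.020. The cause of these changes was not tested. Of the 147 shared genes, 31 to 137 remained without 1 array (31 without either HT-1080 rho0 array), 120 with quantile normalization, 98 with the deposited scaling, 92 with the mean of all probe sets, 88 without the filter, 74 without the trend, 25 with the Pt controls, 17 with the block and 2 with arrays of the same line only. Signals near background limit the size of a change, and 1 HT-29 rho0 array limits every HT-29 value.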
